A study of Homo sapiens with 40 samples.

Results

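Plasminogen activation and the serpins around it were followed through 8 genes, PLAU, PLAT, PLAUR, SERPINE2, SERPINB2, SERPINB5, SERPINB3 and PRSS23, out of 60708 genes in the count tables. The genes were listed by symbol, and they were chosen by their RNA-seq levels and changes in these same 24 libraries. Their levels and fold changes are therefore given as a description, with no p-value for any of them, and how many passed a limit is only set beside the share of all genes that did. All 8 symbols were found once in the tables, but not all passed the filter on low counts: 8 were tested with TGFβ in MI-spheres, 7 with TGFβ in MII-spheres, 8 between the unstimulated lines and 5 in each comparison of MDA-MB-231 cells.

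Plasmin, a secreted protease that dissolves fibrin and cleaves extracellular matrix, is made from plasminogen by the urokinase-type activator uPA (PLAU) or the tissue-type activator tPA (PLAT). The receptor uPAR (PLAUR) holds uPA at the cell surface. Serpins are inhibitors that trap a protease by a change of their own shape: protease nexin-1 (SERPINE2) blocks thrombin and the plasminogen activators, PAI-2 (SERPINB2) blocks uPA and tPA, SERPINB3 inhibits cysteine proteases, and maspin (SERPINB5) has the serpin fold without the inhibitory action. PRSS23 encodes a secreted trypsin-like serine protease. In breast epithelium maspin is known as a marker of myoepithelial and basal cells.

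The libraries formed 8 groups of 3. MI Ctrl and MI TGFb were spheres of MCF-10A, an immortalised breast epithelial line, grown in ultra-low attachment plates and either untreated or given 2.5 ng/ml TGFβ1 for 16 h. MII Ctrl and MII TGFb were spheres of the HRAS-transformed MCF-10A line under the same conditions, and the HRAS transformation was carried by both MII groups. WT and SLUG KO were monolayers of the triple-negative breast cancer line MDA-MB-231, unedited or edited with CRISPR/Cas9 in the first exon of SNAI2, the gene of SLUG, and expanded from single cells; how many clones gave the libraries is not given in the sources used here. Csi and siSMAD2/3/4 were MDA-MB-231 cells transfected with scramble siRNA or with siRNA against SMAD2, SMAD3 and SMAD4. The labels give no TGFβ for any MDA-MB-231 library. Csi and siSMAD2/3/4 carry another sequencing batch label than the other 18 libraries, so their levels are set beside those of WT without a test. For siSMAD2/3/4 replicates 1 and 2 the flow cell name differs from the batch label, which may be a typing error. The comparison with Csi was therefore also fitted with a flow cell term.

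Totals of counted fragments ranged from 14124688 to 38406952 per library. The labels do not say whether replicates were separate cultures, so errors and p-values measure the spread between libraries, which may be technical. WT replicate 2 stood apart: its log2 CPM (counts of a gene scaled to library size) correlated across genes with the other WT libraries at Pearson's r = 0.957 and 0.952, where replicates of the other groups reached 0.984 to 0.994. The fold changes of the 8 genes with SLUG KO are therefore given with and without it. The 4 basal markers differed between the sphere lines, in MI Ctrl and MII Ctrl, with means of 106.6 and 18.9 CPM for KRT5, 1281 and 330 for KRT17, 51.2 and 0.621 for TP63 and, in the other direction, 1.56 and 8.41 for KRT14, and in WT the keratins were at 0.656 CPM or less. The endothelial markers PECAM1 (9.79 CPM in MI Ctrl and 104.6 in MII Ctrl) and CDH5 (22.2 and 10.7 CPM) were above 0 in both lines. Their part in the results was not tested. Of the 2 leukocyte markers, PTPRC stayed under 0.4 CPM on average in every group and CD3E under 0.05. HRAS was 5.45-fold higher in MII Ctrl than in MI Ctrl, SMAD2 and SMAD4 fell by 1.92 and 1.73 on the log2 scale with siSMAD2/3/4, and SMAD3 by 0.69. SNAI2 itself was higher in the libraries labelled SLUG KO, at 61.8 ± 3.59 CPM against 28.3 ± 6.62 in WT (SD, n = 3). WT replicate 2 was at 20.9 CPM and the other WT libraries at 30.2 and 33.7. The size of the edit is not given in the sources used here, and the RNA level of SNAI2 does not check that label. The authors report that knockout clones were checked by ddPCR and immunoblotting.

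The start regions of the genes are shown because the comparisons concern TGFβ, whose SMAD proteins bind CAGAC, and SLUG, which binds the E-box CAGGTG. The 250 bases before a RefSeq start site (build GRCh38.p14) were found for 10 start sites of 7 of the 8 genes, none of PLAT. Searched on both strands were CAGAC (in 13345 of 35116 such windows over all genes), CAGGTG (17.5%), the AP-1 element TGANTCA (6.57%), the palindromic double SMAD element (0.239%) and TATAAA (10.7%). Of the 10 windows CAGAC was found in 5, CAGGTG in 3, TGANTCA in 3 (of PLAUR, SERPINB2 and SERPINB5), TATAAA in 1 (of SERPINB2) and the double element in none, and no matches shared bases. The 4 windows printed here were picked because they hold a match and belong to genes that passed the limits for a differentially expressed gene with TGFβ in 1 of the sphere lines. SERPINE2 and SERPINB3 passed those limits too, and their windows hold no match. A further window of PRSS23, at chr11:86790821-86791070, meets the same rule and is not printed. It holds GTCTG, which is CAGAC on the other strand, at bases -113 to -109 from the start site. Capitals mark CAGAC, the E-box and the AP-1 element in either orientation. They run 5′ to 3′ on the strand of the gene and end at the base before the start site. They lie at chr10:73910882-73911131, chr18:63887455-63887704, chr18:63476708-63476957 and chr11:86800292-86800541, all on the plus strand. The matches are a description of these letters, and binding was not measured in the RNA-seq data.
PLAU: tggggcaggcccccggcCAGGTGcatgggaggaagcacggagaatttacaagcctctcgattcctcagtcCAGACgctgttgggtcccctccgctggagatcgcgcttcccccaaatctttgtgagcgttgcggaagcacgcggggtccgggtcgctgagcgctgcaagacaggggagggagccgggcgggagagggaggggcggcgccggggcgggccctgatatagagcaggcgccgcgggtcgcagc
SERPINB2: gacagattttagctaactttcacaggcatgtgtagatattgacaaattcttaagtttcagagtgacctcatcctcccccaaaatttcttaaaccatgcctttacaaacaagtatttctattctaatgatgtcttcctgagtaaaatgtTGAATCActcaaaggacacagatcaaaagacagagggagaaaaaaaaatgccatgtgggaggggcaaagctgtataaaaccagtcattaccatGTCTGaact
SERPINB5: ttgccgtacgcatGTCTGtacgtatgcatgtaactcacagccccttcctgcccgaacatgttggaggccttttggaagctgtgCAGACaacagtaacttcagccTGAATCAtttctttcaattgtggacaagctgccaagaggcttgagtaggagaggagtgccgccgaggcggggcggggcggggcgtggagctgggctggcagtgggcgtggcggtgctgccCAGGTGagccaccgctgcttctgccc
PRSS23: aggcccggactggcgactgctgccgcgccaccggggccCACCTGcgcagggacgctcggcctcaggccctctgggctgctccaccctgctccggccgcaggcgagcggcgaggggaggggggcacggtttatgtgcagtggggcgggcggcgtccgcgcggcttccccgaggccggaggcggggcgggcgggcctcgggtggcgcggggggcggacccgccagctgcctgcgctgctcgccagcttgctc

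The 8 genes differed widely in how far their levels moved across the groups. PLAUR was the steadiest, with a highest group mean only 1.83-fold above the lowest, followed by SERPINE2 (5.14-fold), PLAT (18.6-fold), PRSS23 (43.9-fold) and PLAU (88.4-fold). SERPINB5, SERPINB3 and SERPINB2 were abundant in spheres of at least 1 line and at or near 0 counts in all 12 MDA-MB-231 libraries. CPM were scaled once over all 24 libraries, and in these bulk cultures fewer cells that make a transcript and less of it per cell cannot be told apart.

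**Figure D1:**
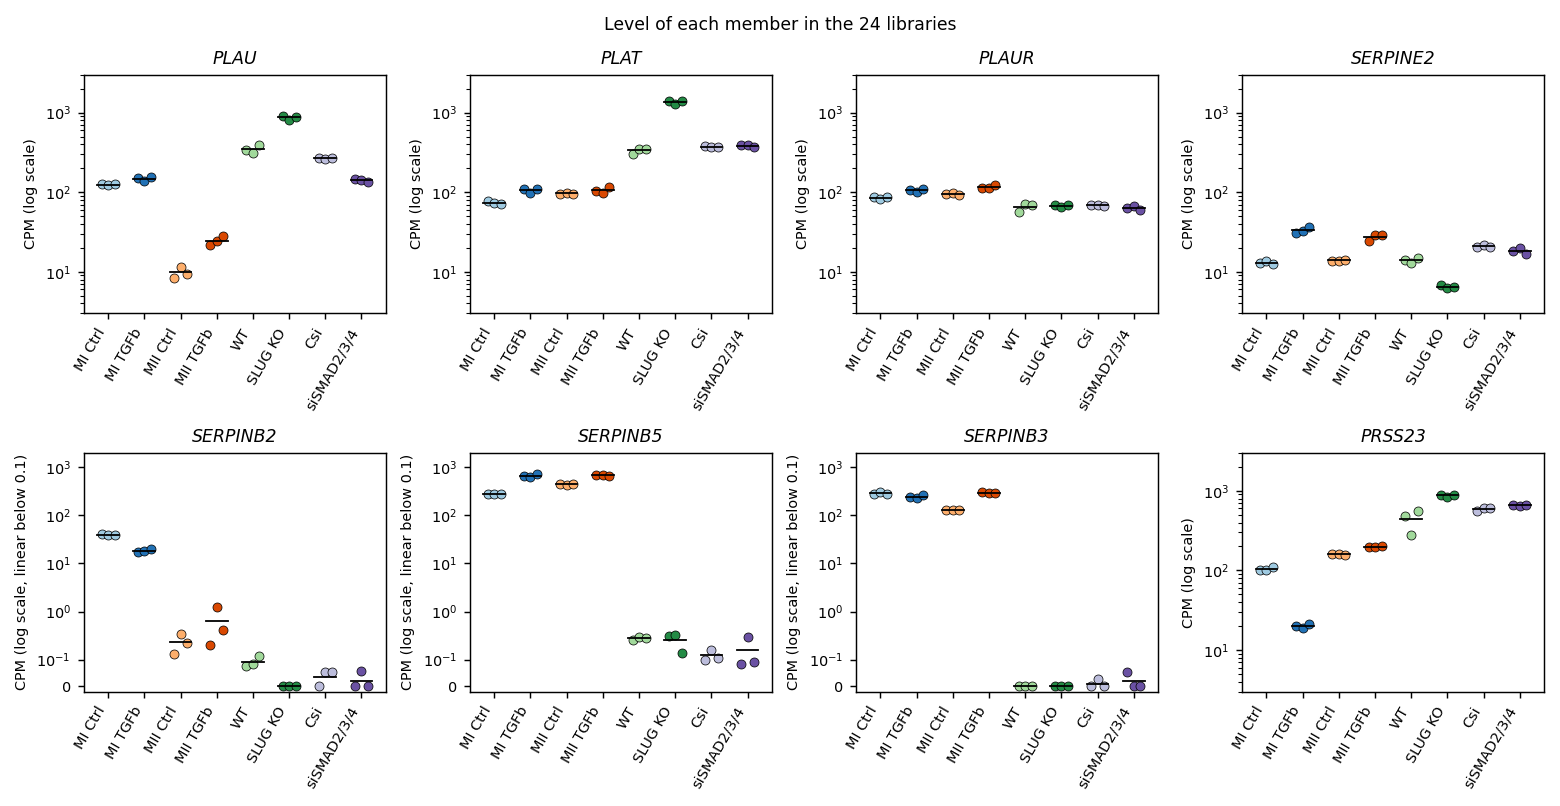
Level of each gene in CPM (vertical axis, log scale, linear below 0.1 for the 3 clade B serpins) in the 8 groups (horizontal axis), with 1 point per library and a line at the mean of 3. PLAU spans 8.47 CPM in MII Ctrl to 914 in SLUG KO, and SERPINB5 and SERPINB3 stand above 100 CPM in every sphere library and below 0.4 in every MDA-MB-231 library.

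A comparison of levels between genes was made per kilobase of exon. The length took in all annotated exons of a gene, 7770 bases for PLAT, 8957 for SERPINE2 and 11444 for PRSS23. The order between genes depends on these lengths, and which transcripts the cells made was not tested. In MI Ctrl the order was SERPINB3 (169 ± 8.07 CPM per kilobase), SERPINB5 (74.6 ± 1.43), PLAU (42.3 ± 0.452), PLAUR (19.0 ± 0.585), SERPINB2 (14.3 ± 0.482), PLAT (9.48 ± 0.333), PRSS23 (9.15 ± 0.456) and SERPINE2 (1.46 ± 0.0790; SD, n = 3). In MII Ctrl PLAT (12.4 ± 0.186) and PLAUR (21.3 ± 0.631) stood above PLAU (3.34 ± 0.542). In WT PLAU led at 117 ± 12.8, PLAT was at 43.1 ± 3.61 and PRSS23 at 38.2 ± 12.6. The order of the last pair also rests on WT replicate 2. PRSS23 was above PLAT in WT replicate 1 (41.9 and 38.9) and replicate 3 (48.4 and 45.5). It was below PLAT in replicate 2 (24.2 and 44.8). The serpin of the list that MDA-MB-231 cells did transcribe, SERPINE2, reached only 1.56 ± 0.121. PLG, the gene of plasminogen, had from 0 to 6 counts summed over each group's 3 libraries, so the substrate of the activators was hardly transcribed in any group.

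**Figure D2:**
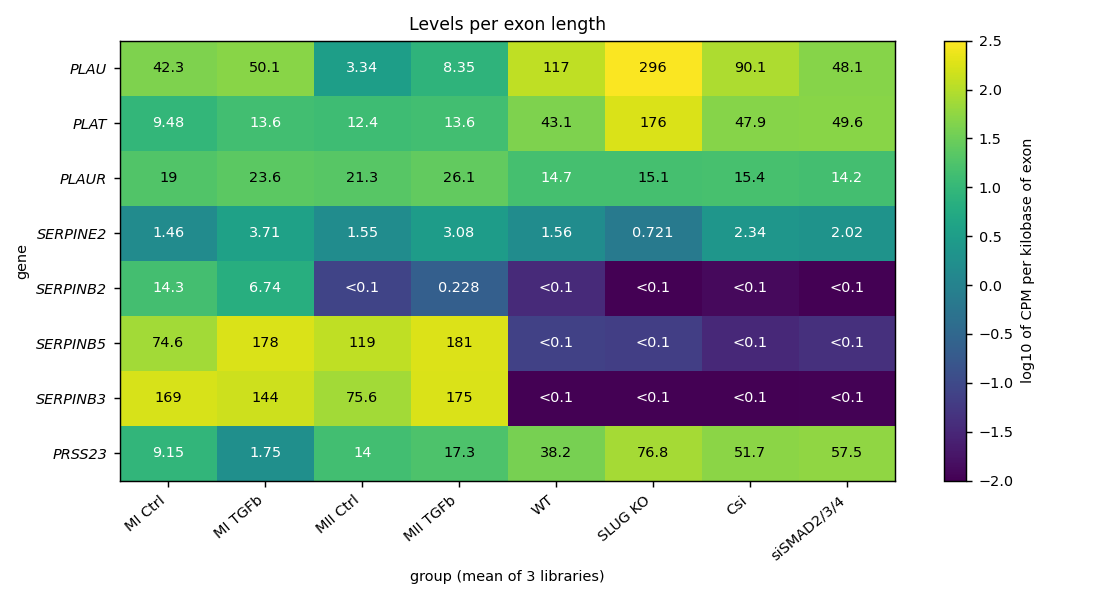
Mean CPM per kilobase of exon (printed in each cell, colour on a log10 scale) of the 8 genes (rows) in the 8 groups (columns), each a mean of 3 libraries. PLAU is lowest in MII Ctrl, at 3.34, and SERPINB2, SERPINB5 and SERPINB3 are under 0.1 in all 4 MDA-MB-231 groups.

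TGFβ in MI-spheres was compared first. A gene was called a differentially expressed gene (DEG) at an absolute log2 fold change above 1 and a Benjamini-Hochberg adjusted p under 0.05 in edgeR's quasi-likelihood test over all genes tested. By that rule 13.6% of 16863 genes were DEGs with TGFβ in MI-spheres, 3.64% higher and 9.92% lower, and 4 of the 8 genes were, SERPINE2 and SERPINB5 higher and SERPINB2 and PRSS23 lower. The share in MII-spheres was 10.6% of 16396 genes (3.12% higher, 7.5% lower), and among the 7 genes tested it was 2, PLAU and SERPINB3, both higher. The difference between the lines in the response, MII minus MI, was tested as an interaction over the 12 sphere libraries. It was past the same limits for 5.84% of 18591 genes (3.75% positive, 2.09% negative). Of the 8 genes 4 passed, PLAU, SERPINB2, SERPINB3 and PRSS23, all positive. A positive difference can be a larger rise in MII or a fall in MI that MII did not share, as for PRSS23 (-2.47 in MI, 0.27 in MII). Nothing is read from these counts, since the genes were chosen on these contrasts.

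**Figure D3:**
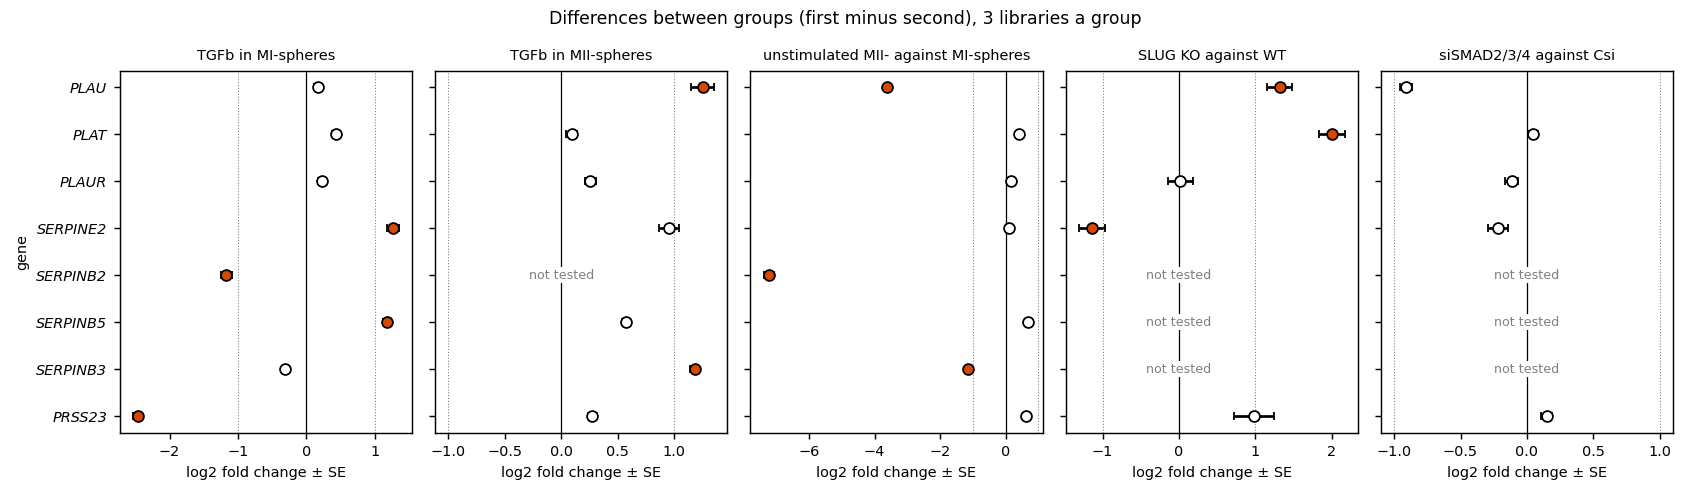
Log2 fold change of each gene (rows) in 5 comparisons (panels), the first group named minus the second, with bars for the standard error (SE), dotted lines at 1 and -1, and filled points for DEGs. PRSS23 lies at -2.47 with TGFβ in MI-spheres and at 0.27 in MII-spheres, and PLAU lies on opposite sides of 0 with SLUG KO (1.32) and siSMAD2/3/4 (-0.91).

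PLAU (ENSG00000122861.16, chromosome 10, 73909177 to 73917496, plus strand, GRCh38) encodes urokinase, the activator that works at the cell surface. In MI Ctrl its level was 125, 123 and 126 CPM and in MI TGFb 150.5, 139 and 154 CPM. Each stimulated library was above all unstimulated ones, but by a small step. The log2 fold change was 0.16 ± 0.051 (SE), from a fit that scaled only the 6 libraries compared. This step depends on the scaling: by library totals with no scaling the means were 126.8 CPM in MI TGFb and 124.7 in MI Ctrl. In MII Ctrl it was 8.47, 11.6 and 9.49 CPM and in MII TGFb 21.5, 24.6 and 27.8 CPM, again without overlap, a log2 fold change of 1.25 ± 0.10. The response was larger in MII-spheres by 1.09 ± 0.11, or by 0.96, and so under the limit for a DEG, without MII TGFb replicate 3. The unstimulated MII-spheres were lower than the MI-spheres by 3.61 ± 0.066 on the log2 scale, and the stimulated MII-spheres stayed below every MI library. The order of the 8 groups was SLUG KO, WT, Csi, MI TGFb, siSMAD2/3/4, MI Ctrl, MII TGFb and MII Ctrl, and of neighbours in that order only MI TGFb and siSMAD2/3/4 overlapped. Of the exon bases of PLAU, 31.0% lie also in exons of C10orf55 on the opposite strand, and since the authors counted without strand, fragments there could not be assigned to PLAU alone.

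In MDA-MB-231 cells urokinase RNA was higher in the libraries labelled SLUG KO and lower with siSMAD2/3/4. WT stood at 334, 312 and 386 CPM and SLUG KO at 914, 813 and 888 CPM. The groups did not overlap, and the log2 fold change was 1.32 ± 0.17, or 1.27 ± 0.099 without WT replicate 2. Csi stood at 266, 261 and 270 CPM and siSMAD2/3/4 at 148, 144 and 133 CPM, so that each silenced library was below each control, with a log2 fold change of -0.91 ± 0.042. That is under the limit for a DEG although the difference passed the adjusted p. The call with SLUG KO was lost, at log2 fold changes of 1.30, 1.38 and 1.32, without SLUG KO replicate 1, 2 or 3, and at 1.33 without WT replicate 1.

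PLAT (ENSG00000104368.19, chromosome 8, 42174718 to 42207709, minus strand) encodes the tissue-type activator, the main activator in blood. Its level was 76.4, 73.2 and 71.3 CPM in MI Ctrl and 109.3, 97.3 and 109.3 CPM in MI TGFb, which did not overlap (log2 fold change 0.43 ± 0.057). In MII Ctrl it was 95.9, 98.3 and 95.7 CPM and in MII TGFb 102.003, 98.99 and 115.5 CPM. These did not overlap either, but the step of 0.09 ± 0.049 did not pass the adjusted p. The largest difference of PLAT was in MDA-MB-231 cells, with 303, 348 and 353 CPM in WT and 1403, 1289 and 1408 CPM in SLUG KO. The log2 fold change was 2.00 ± 0.16 and 2.05 ± 0.10 without WT replicate 2, the only call among the genes with SLUG KO that held whichever library was left out. With siSMAD2/3/4 PLAT stayed at 393, 393 and 371 CPM against 380, 373 and 365 CPM in Csi, overlapping groups with a log2 fold change of 0.04 ± 0.038. The order of the groups was SLUG KO, siSMAD2/3/4, Csi, WT, MII TGFb, MI TGFb, MII Ctrl and MI Ctrl, and neighbours overlapped between siSMAD2/3/4 and Csi and from MII TGFb to MII Ctrl.

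PLAUR (ENSG00000011422.12, chromosome 19, 43646095 to 43670547, minus strand), the urokinase receptor, moved least. It was at 85.8, 81.9 and 86.8 CPM in MI Ctrl and at 106.6, 99.5 and 109.5 CPM in MI TGFb, and at 95.9, 97.2 and 91.8 CPM in MII Ctrl and 113, 113 and 123 CPM in MII TGFb. Stimulated libraries were above unstimulated ones in both lines, with log2 fold changes of 0.23 ± 0.054 and 0.26 ± 0.047 and an interaction of 0.04 ± 0.073 that did not pass. In WT it was at 55.7, 71.6 and 68.8 CPM and in SLUG KO at 68.1, 65.4 and 68.7 CPM, overlapping groups with a log2 fold change of 0.02 ± 0.16, and 0.10 ± 0.097 without WT replicate 2. With siSMAD2/3/4 it was at 64.2, 66.4 and 59.7 CPM against 69.7, 68.8 and 66.8 CPM in Csi, and this step of -0.11 ± 0.050 did not pass the adjusted p. The 4 MDA-MB-231 groups overlapped along the order, and all their libraries were below those of the spheres.

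SERPINE2 (ENSG00000135919.14, chromosome 2, 223975045 to 224039318, minus strand), protease nexin-1, rose with TGFβ by a similar step in both lines. It went from 12.996, 13.8 and 12.4 CPM in MI Ctrl to 30.4, 32.9 and 36.3 CPM in MI TGFb and from 13.7, 13.7 and 14.3 CPM in MII Ctrl to 24.5, 29.3 and 28.8 CPM in MII TGFb. The log2 fold changes were 1.26 ± 0.084 and 0.95 ± 0.085 (1.04, and then a DEG, without MII TGFb replicate 1), and their difference of -0.30 ± 0.12 did not pass the adjusted p. The unstimulated lines overlapped, with a log2 fold change of 0.10 ± 0.090. In WT it was at 13.9, 12.9 and 15.1 CPM and in SLUG KO at 6.75, 6.21 and 6.43 CPM, the lowest group of all 8, with a log2 fold change of -1.14 ± 0.17, or -1.18 ± 0.13 without WT replicate 2. This call was lost when any other library was left out, at -1.15, -1.10 and -1.11 without SLUG KO replicate 1, 2 or 3 and at -1.11 and -1.08 without WT replicate 1 or 3. The direction was thus opposite to that of PLAU and PLAT, whose enzymes it inhibits. With siSMAD2/3/4 it was at 18.1, 19.6 and 16.6 CPM against 20.5, 22.0 and 20.4 CPM in Csi, a step of -0.21 ± 0.075 that passed the adjusted p but was small.

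SERPINB2 (ENSG00000197632.9, chromosome 18, 63871692 to 63903888, plus strand), the inhibitor PAI-2, separated the sphere lines most among the 8 genes. MI Ctrl held 40.8, 38.4 and 38.7 CPM and MI TGFb 17.2, 17.96 and 20.3 CPM, a fall of every stimulated library below every control (log2 fold change -1.17 ± 0.075). MII Ctrl held only 0.132, 0.334 and 0.222 CPM, from 2, 10 and 4 counts, and the difference between the unstimulated lines was -7.24 ± 0.15 on the log2 scale. MII TGFb held 0.203, 1.27 and 0.407 CPM, from 3, 19 and 6 counts, which overlapped MII Ctrl and were too few to be tested in that line. The interaction of 2.44 ± 0.50 rests on those counts and was 1.38 and no longer past the adjusted p without MII TGFb replicate 2. In MDA-MB-231 cells SERPINB2 had 0 counts in each SLUG KO library and at most 3 in any other, at or under the floor that 3 counts set (0.0781 to 0.143 CPM), so no fold is given. Of its 2741 exon bases, 547 lie also in exons of SERPINB10 on the same strand.

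SERPINB5 (ENSG00000206075.14, chromosome 18, 63476958 to 63505085, plus strand), maspin, was among the highest of the 8 genes in spheres. It was at 274, 278 and 285 CPM in MI Ctrl and at 650, 621 and 724 CPM in MI TGFb (log2 fold change 1.17 ± 0.054), and at 453, 430.1 and 457 CPM in MII Ctrl and 697, 682 and 656 CPM in MII TGFb (0.57 ± 0.035). Stimulated libraries were above unstimulated ones in both lines, unstimulated MII-spheres were above MI-spheres by 0.69 ± 0.036, and the stimulated groups overlapped. The response was smaller in MII-spheres by 0.59 ± 0.065 on the log2 scale. The basal markers also stood higher in the stimulated groups, KRT5 at 591 CPM in MI TGFb and 201 in MII TGFb, KRT14 at 4.44 and 24.3, KRT17 at 2479 and 1239 and TP63 at 87.7 and 2.65, and their part in the change of SERPINB5 was not tested. In the 12 MDA-MB-231 libraries SERPINB5 had 3 to 10 counts each and was not tested.

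SERPINB3 (ENSG00000057149.16, chromosome 18, 63655197 to 63661893, minus strand), known as squamous cell carcinoma antigen 1, moved in opposite directions in the 2 lines. It was at 285, 303 and 276 CPM in MI Ctrl and at 246, 227 and 267 CPM in MI TGFb, a small fall of 0.31 ± 0.056 on the log2 scale without overlap. In MII-spheres it went from 130.1, 127.9 and 128.9 CPM to 307, 298 and 291 CPM, a log2 fold change of 1.18 ± 0.038. Unstimulated MII-spheres were below MI-spheres by 1.15 ± 0.039, and stimulated MII-spheres overlapped MI Ctrl. The difference in response was 1.49 ± 0.069. In MDA-MB-231 cells it had 0 to 2 counts per library. SERPINB4 is a near-identical neighbour, so reads that map to both may have been lost at the mapping quality required, which was not measured. Of the exon bases of SERPINB3, 36.3% lie in exons of SERPINB11 on the other strand, so its level is uncertain.

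PRSS23 (ENSG00000150687.12, chromosome 11, 86791059 to 86952910, plus strand), the secreted serine protease, gave the strongest contrast between the lines in the response to TGFβ. It fell from 101.5, 101.9 and 110.7 CPM in MI Ctrl to 19.9, 18.8 and 21.4 CPM in MI TGFb, a log2 fold change of -2.47 ± 0.066. In MII-spheres it went from 163, 159 and 157 CPM to 194, 196 and 203 CPM, a small rise of 0.27 ± 0.039. The difference in response was 2.75 ± 0.076, and none of the 4 sphere groups overlapped. In MDA-MB-231 cells it was at 480, 276 and 554 CPM in WT and at 891, 845 and 899 CPM in SLUG KO. All SLUG KO libraries were above all WT libraries, but the log2 fold change of 0.98 ± 0.26 did not pass the adjusted p, and without WT replicate 2, the low library, it passed at 0.75 ± 0.095. With siSMAD2/3/4 it was at 663, 647 and 665 CPM against 556, 614 and 605 CPM in Csi, a step of 0.15 ± 0.039. Across the groups PRSS23 ran from SLUG KO through siSMAD2/3/4, Csi, WT, MII TGFb, MII Ctrl and MI Ctrl to MI TGFb, with no overlap between neighbours. Of its exon bases 12.2% lie in exons of FZD4 on the other strand.

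The comparison of unstimulated MII- with MI-spheres shares the MI Ctrl and MII Ctrl libraries with the TGFβ comparisons, so its values only stand beside theirs. Of 17862 genes 20.1% were DEGs between the lines, 12.5% higher and 7.62% lower in MII, and of the 8 genes 3 were, PLAU, SERPINB2 and SERPINB3, all lower. With SLUG KO 3.05% of 17428 genes were DEGs, 1.25% higher and 1.8% lower, and of the 5 genes tested PLAU and PLAT were higher and SERPINE2 lower. The number of DEGs over all genes turned on single libraries: it was 531 with all 6, 1329 of 17909 genes tested without WT replicate 2, 184 without WT replicate 1, 378 without WT replicate 3 and 133, 135 and 139 without SLUG KO replicate 1, 2 or 3. With siSMAD2/3/4 1.9% of 17696 genes were DEGs, 0.978% higher and 0.927% lower, and 0 of the 5 genes tested were, by edgeR or by DESeq2. In edgeR PLAU, SERPINE2 and PRSS23 passed the adjusted p but not the limit on the fold change. The share of all genes past the adjusted p alone is not given here, so nothing is read from that.

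Other genes of the system were taken from 6 lists of 69 genes. The lists were chosen with earlier results of these data known. Nothing is therefore read from their counts and medians, here or in the other comparisons, and their adjusted p-values describe the same fits. With TGFβ in MI-spheres 41 of the list genes could be tested, and 11 were DEGs higher and 2 lower, beside 3.64% and 9.92% of all genes. In MII-spheres 39 were tested, and 6 were DEGs higher and 1 lower, beside 3.12% and 7.5% of all genes. The median log2 fold change of the tested list genes was 0.50 and 0.30, beside -0.02 and -0.02 over all genes. Among the other activators and inhibitors 3 of 6 were tested in each line. SERPINF2, encoding α2-antiplasmin, rose by 0.74 ± 0.16 (adjusted p = 6.0e-04) and 0.85 ± 0.18 (adjusted p = 4.8e-05). SERPINI1, encoding neuroserpin, an inhibitor of tPA, rose by 0.57 ± 0.19 in MI-spheres (adjusted p = 0.015) and fell by 1.09 ± 0.30 in MII-spheres (adjusted p = 0.0016), from 171 and 140 counts summed over the unstimulated libraries. SERPINA5, the protein C inhibitor, rose in MII-spheres from 21.1 to 48.0 CPM (1.15 ± 0.069, adjusted p = 1.7e-20) and had only 4 counts in all 3 MI Ctrl libraries and 50 in MI TGFb, so no fold is given there.

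All 7 plasminogen receptors and cofactors were tested. In MI-spheres all 7 passed the adjusted p upwards, and S100A10, ENO1 and VLDLR were DEGs. In MII-spheres 5 passed upwards, 1 downwards and S100A10 was the DEG. Of all genes tested, 28.7% passed the adjusted p upwards and 27.4% downwards in MI-spheres, and 29.9% and 27.6% in MII-spheres. S100A10, which with annexin A2 binds plasminogen at the cell surface, rose by 1.70 ± 0.054 in MI (adjusted p = 2.8e-16) and 1.36 ± 0.043 in MII (adjusted p = 1.8e-32). ANXA2 itself rose by 0.71 ± 0.060 and 0.61 ± 0.032, and the receptor PLGRKT by 0.60 ± 0.093 and 0.51 ± 0.10. ENO1, a glycolytic enzyme that also binds plasminogen, rose by 1.26 ± 0.054 and 0.93 ± 0.033. VLDLR, which clears complexes of activator and inhibitor, rose by 1.67 ± 0.11 and 0.50 ± 0.075, and LRP1, with the same role, by 0.30 ± 0.095 in MI (1 stimulated library lay among the controls) while it fell by 0.31 ± 0.085 in MII. IGF2R rose by 0.19 ± 0.062 in MI, and its step in MII of 0.06 ± 0.036 did not pass (adjusted p = 0.16, edgeR).

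**Figure D4:**
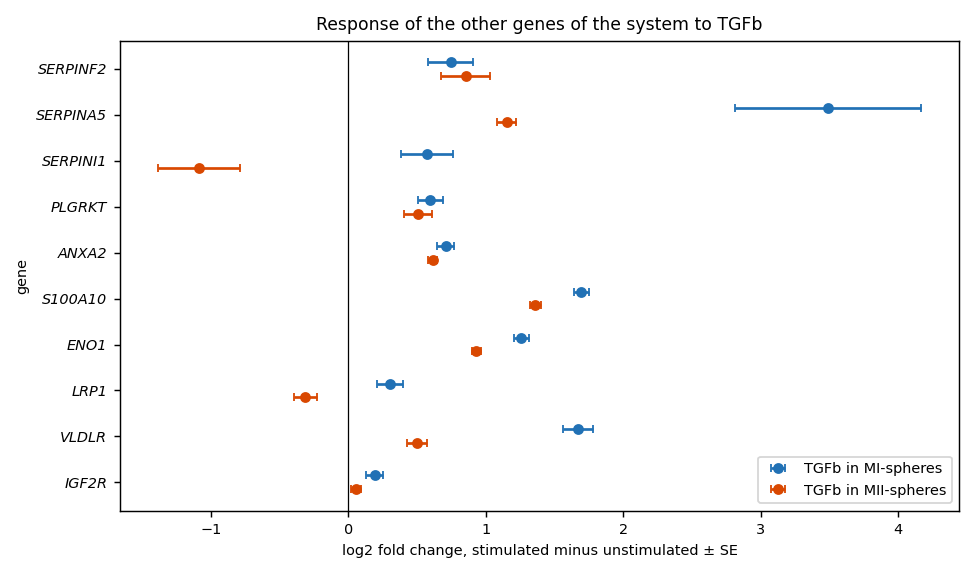
Log2 fold change with TGFβ (horizontal axis, stimulated minus unstimulated, bars for SE) of the tested genes of 2 lists (rows) in MI-spheres (blue) and MII-spheres (orange), 3 libraries a group. S100A10 rises by 1.70 and 1.36, SERPINI1 and LRP1 lie on opposite sides of 0, and the MI value of SERPINA5 rests on 4 counts in MI Ctrl.

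Among the remaining lists, SERPINB13 rose in both lines (1.09 ± 0.067 in MI, adjusted p = 1.9e-11, and 1.12 ± 0.20 in MII, adjusted p = 5.8e-06). SERPINB4 rose in MII by 1.61 ± 0.070 (adjusted p = 2.5e-26). SERPINB7 rose there by 2.68 ± 0.34 (adjusted p = 2.2e-09), from only 26 counts in all of MII Ctrl to 120 in MII TGFb. SERPINB10 fell in MI by 2.60 ± 0.50 (adjusted p = 1.7e-04) from 49 to 8 counts, and its exons overlap those of SERPINB2, which fell there too. SERPINA1 rose in MI by 1.36 ± 0.27 (adjusted p = 2.2e-04). The protease PRSS22, from the list of trypsin-like proteases, fell by 2.23 ± 0.10 in MI (adjusted p = 2.0e-13) and differed from MII by 1.74 ± 0.11 (adjusted p = 1.1e-15). It fell in MII too, by 0.50 ± 0.051 (adjusted p = 4.3e-12), where PRSS23 rose. TMPRSS11E rose by 3.05 ± 0.41 in MI (adjusted p = 2.3e-06), from 13 counts, and by 1.48 ± 0.14 in MII (adjusted p = 2.6e-13). Of the coagulation genes in MI-spheres, PROCR, the protein C receptor, rose by 1.76 ± 0.098 (adjusted p = 3.7e-12), F12 by 1.34 ± 0.093 (adjusted p = 1.2e-10) and THBD by 1.19 ± 0.28 (adjusted p = 0.0011).

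Between unstimulated lines 43 list genes were tested, and 11 were DEGs higher and 8 lower in MII (median log2 fold change 0.17, beside 0.02 over all genes). Of all genes 12.5% were DEGs higher and 7.62% lower. LRP1 was lower by 2.82 ± 0.055 (adjusted p = 6.1e-44), while VLDLR was higher by 1.96 ± 0.10 (adjusted p = 5.9e-24). ANXA2 was higher by 0.53 ± 0.035, IGF2R higher by 0.17 ± 0.038 and ENO1 lower by 0.40 ± 0.034, and PLGRKT, S100A10, SERPINF2 and SERPINI1 did not pass. From the other lists, SERPINB13, SERPINB8, SERPINB10, SERPINE3, SERPINF1, PROCR and THBD were lower, with log2 fold changes of -5.01 (PROCR) to -1.16. In MII Ctrl PROCR, THBD and SERPINB10 had only 0.266, 0.111 and 0.0704 CPM, near the floor that 3 counts set, so the sizes of these differences are uncertain. SERPINA1, SERPINA3 (17 counts in MI Ctrl), PRSS12, PRSS22, TFPI and F2R were higher by 1.01 to 4.90. SERPINA5 and TMPRSS2 stood at 21.1 and 25.3 CPM in MII Ctrl with 4 and 5 counts in all of MI Ctrl.

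In the libraries labelled SLUG KO 43 list genes were tested, and 4 were DEGs higher and 2 lower (median 0.0089, beside -0.05 over all genes). Of all genes 1.25% were DEGs higher and 1.8% lower. Without WT replicate 2 the number of list DEGs rose from 6 to 11. ST14, encoding matriptase, a membrane protease that can activate pro-urokinase, was higher at 22.0, 19.9 and 21.1 CPM against 1.91, 4.81 and 2.21 CPM in WT (2.79 ± 0.37, adjusted p = 0.010, and 3.33 ± 0.15, adjusted p = 2.2e-10, without WT replicate 2). HTRA1 was higher by 1.13 ± 0.15 (adjusted p = 0.011), SERPINA1 by 1.06 ± 0.20 (adjusted p = 0.035) and TFPI2 by 1.77 ± 0.36 (adjusted p = 0.047), and VLDLR and F2RL1, encoding PAR2, were lower by 1.48 ± 0.25 (adjusted p = 0.025) and 1.31 ± 0.26 (adjusted p = 0.043). Without WT replicate 2 these were 1.16 ± 0.091, 1.22 ± 0.11, 1.46 ± 0.11, -1.30 ± 0.18 and -1.53 ± 0.094, all DEGs. Leaving out another library cut the list DEGs to 0 without SLUG KO replicate 1 or 3, to 1 without SLUG KO replicate 2 or WT replicate 1, and to 4 without WT replicate 3. SERPINA5 did not pass with all libraries (-1.92 ± 0.45, adjusted p = 0.073) and passed without WT replicate 2 (-1.99 ± 0.54, adjusted p = 0.010), as did IGF2R (0.01 ± 0.26, adjusted p = 0.99, and 0.33 ± 0.098, adjusted p = 0.017). LRP1 was at 49.0, 179 and 35.5 CPM in WT against 34.2 to 36.2 in SLUG KO, and its value moved from -1.36 ± 0.58 to -0.28 ± 0.12 without WT replicate 2, neither past the adjusted p. SERPINF2, SERPINI1, PLGRKT, ANXA2, S100A10 and ENO1 passed in neither fit.

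With siSMAD2/3/4 46 list genes were tested, and 1 was a DEG, HPN, encoding the protease hepsin, from 24 counts in all of Csi and 61 in siSMAD2/3/4 (1.35 ± 0.45, adjusted p = 0.019). The median was -0.08, beside 0.00381 over all genes, of which 0.978% were DEGs higher and 0.927% lower. VLDLR fell by 0.55 ± 0.094 and ENO1 by 0.18 ± 0.037, LRP1 rose by 0.37 ± 0.057, SERPINF2 by 0.60 ± 0.23 and IGF2R by 0.12 ± 0.037, and the other genes of both lists that were tested, SERPINA5, SERPINI1, A2M, PLGRKT, ANXA2 and S100A10, did not pass.

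SERPINB5, SERPINB3 and SERPINB2 belong to a cluster of 10 clade B serpins on chromosome 18 that spans 63476958 to 64019779. In spheres the levels of neighbours differed by orders of magnitude, with SERPINB12 at 0.0719 CPM and SERPINB5 at 279 in MI Ctrl. In the MDA-MB-231 libraries only SERPINB8 (8.77 to 15.7 CPM as group means) and SERPINB7 (0.366 to 3.03) had more than 10 counts in any library. SERPINB13, SERPINB2, SERPINB3, SERPINB4 (15.3 and 25.0 CPM) and SERPINB8 (8.78 and 21.8) were lower in MII Ctrl than in MI Ctrl, and SERPINB5 was higher. SERPINB10 was lower near the floor (0.0704 and 0.746 CPM). SERPINB7 (0.367 and 0.669 CPM), SERPINB11 (0.470 and 0.493) and SERPINB12 (0.104 and 0.0719) were too low in both for a direction to be read.

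**Figure D5:**
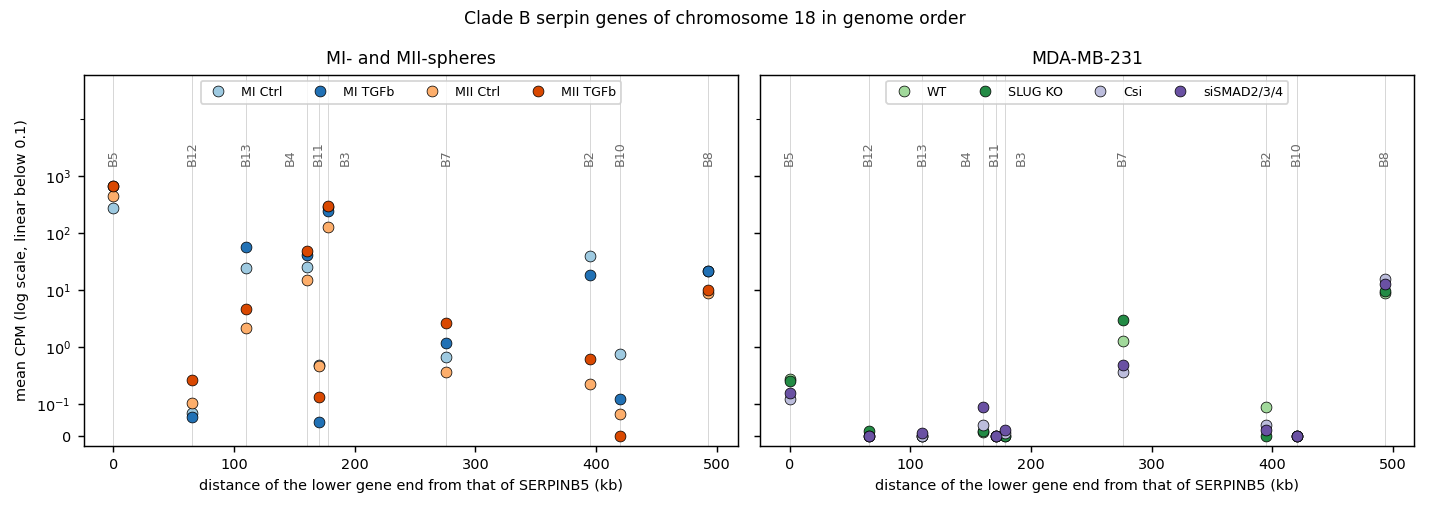
Mean CPM (vertical axis, log scale, linear below 0.1) of the 10 clade B serpin genes of chromosome 18, plotted by the distance in kilobases of each gene's lower end from that of SERPINB5 (horizontal axis; B5 stands for SERPINB5), in spheres (left) and MDA-MB-231 cells (right), each point a mean of 3 libraries. SERPINB5 and SERPINB3 lie above 100 CPM in all 4 sphere groups, and SERPINB8, at the far end, is the 1 gene above 5 CPM in MDA-MB-231 cells.

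The genes with the pattern most like each of the 8 were ranked by Pearson's r of log2 CPM over the 24 libraries among 22194 genes. These values describe libraries that fall into spheres and MDA-MB-231 cells and share groups and scaling, so the r mostly repeat the steps between lines. For PLAU they were EXT1 (0.985), OTULINL (0.979) and CMKLR2 (0.975), for PLAT CST7 (0.967), PAG1 (0.966) and VCAM1 (0.966), and for PLAUR PTHLH (0.968), TMED3 (0.962) and PMPCA (0.960). For SERPINE2 they were RBBP4 (0.934), UNC119B (0.919) and TGFBI (0.892), the last a known TGFβ-induced gene. For SERPINB2 they were S100A7 (0.980), PGLYRP4 (0.979) and S100A8 (0.979), genes of the squamous epithelial barrier. For SERPINB5 they were RN7SL471P (0.997), LIPK (0.997) and H4C5 (0.997), for SERPINB3 PNLIPRP3 (0.999), TMPRSS13 (0.998) and IRX4-AS1 (0.998), and for PRSS23 CDC14B (0.984), STK38 (0.972) and CDC42EP3 (0.970).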

How the data were processed

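RNA-seq counts of 24 libraries (14124688 to 38406952 counted fragments each) were analysed, and the 16 ATAC-seq samples of the series are not analysed here. Per the submitters' processing notes the authors used Trimmomatic and STAR on GRCh38, and they deposited raw counts per gene, made per the file headers with featureCounts 2.0.0 on GENCODE release 38 (exons, both ends mapped, mapping quality of at least 30, strand ignored although the kit marks strand). Symbols came from GENCODE release 44 and matched 60463 of 60708 genes. The members and gene lists were chosen with earlier results of these data known, and 1 list gene is not reported here. Every fit used only the 6 libraries compared (12 for the interaction), with filterByExpr, TMM and the quasi-likelihood test of edgeR 4.0.16, adjusted over all genes tested (DEGs: adjusted p under 0.05, absolute log2 fold change above 1). The SE of a log2 fold change is its size divided by the square root of its F statistic. Levels are CPM after 1 TMM scaling over 24 libraries. Named from the lists are all tested genes of the first 2 and, from each other, up to 3 DEGs per direction with the smallest adjusted p and no overlap. Likeness used log2 CPM with a prior count of 2. Tests were checked on simulated data. Alternatives were DESeq2 1.42.0, its size factors, other count filters, a replicate block, the 12 sphere libraries fitted jointly, a flow cell term, and leaving out each library.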

Additional observations from a re-analysis of the deposited data

Results flagged for a closer look

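The response to TGFβ differed between MII- and MI-spheres, by edgeR's test of the interaction, for these genes, with the difference given as MII minus MI on the log2 scale. Among the 8 genes it was 1.09 for PLAU, -0.33 for PLAT, 2.44 for SERPINB2, -0.59 for SERPINB5, 1.49 for SERPINB3 and 2.75 for PRSS23. The genes were chosen on these contrasts, so the values describe them. SERPINB3 and PRSS23 moved in opposite directions in the lines, and SERPINB2 rests on 2 to 19 counts per MII library. PLAU, PLAT and SERPINB5 moved upwards in both by unequal steps. That of PLAT in MII was not past its test, and its group means went the other way by library totals with no scaling.

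Among the other genes of the system 45 were tested and 7 were DEGs, 3 with a positive and 4 with a negative difference, beside 5.84% of 18591 genes. The lists were chosen with earlier results of these data known, so nothing is read from that count. Genes past the adjusted p alone are listed next without a count, since the share of all genes past it is not given here. The difference was -2.31 for SERPINA5 (4 counts in MI Ctrl), -1.64 for SERPINI1, -0.32 for S100A10, -0.32 for ENO1, -0.60 for LRP1 and -1.16 for VLDLR. It was 1.00 for SERPINB4, 1.95 for SERPINB7 (26 counts in MII Ctrl), -1.56 for TMPRSS11E (13 counts in MI Ctrl), 1.74 for PRSS22, -0.84 for F12 and 0.92 for TFPI. It was 0.36 for SERPINB1, -0.27 for SERPINB6, -0.23 for SERPINH1, 0.41 for ST14, -0.57 for PRSS12, 0.55 for SPINT1, 0.40 for SPINT2, 0.30 for F2RL1 and 0.30 for F3. SERPINI1 and LRP1 rose in MI and fell in MII, and TFPI fell in MI (by 0.75) and rose in MII (by 0.17).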

How the results depend on the processing

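Refitting the log2 fold changes of the 8 genes under the alternatives kept direction and call in 503 of the values, made 3 a DEG, lost 13 as a DEG and reversed 6, and the cause was not tested. All 6 reversals were of values near 0: PLAUR with SLUG KO (main 0.02) was -0.0050 with at least 10 counts in every library and -0.056 without WT replicate 1 (0.10 without WT replicate 2), PLAT with siSMAD2/3/4 was -0.00033 with flow cell as a term, and the interaction of PLAUR (main 0.04) was -0.0099 without MI Ctrl replicate 3, -0.036 without MI TGFb replicate 2 and -0.046 without MII TGFb replicate 3, within -0.046 to 0.058 over all libraries left out. PRSS23 with SLUG KO became a DEG with DESeq2 (1.02) and with no filter on low counts (1.04).

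Replicate numbers did not pair the libraries, since deviations of same-numbered libraries correlated at -0.123 to 0.032. With a replicate block, DEGs with SLUG KO fell from 3 to 1 among the 8 genes and from 6 to 2 among the list genes. Leaving out 1 library gave 1 to 3 and 0 to 11. With at least 10 counts in every library, where fewer genes are tested, list DEGs were 10 in place of 19 between unstimulated lines, 3 with SLUG KO, 0 with siSMAD2/3/4 and 4 in place of 7 for the interaction. The 1 list DEG with siSMAD2/3/4 was also lost with DESeq2 (0) and the flow cell term (0), and leaving out a library gave 0 to 1. SERPINB2 gave no value between the lines or for the interaction under that filter. Levels moved by 0.969 to 1.03 times with DESeq2's size factors and by 0.857 to 1.09 times with library totals. No fold change was refitted with library totals. With 3 libraries a group and 1 far apart in WT, comparisons of SLUG KO are the least precise.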
